A study of Homo sapiens with 12 samples.

Results

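The genes described here are NFE2L2, the gene of the transcription factor NRF2, and 7 genes that NRF2 is known to control: NQO1, HMOX1, GCLC, GCLM, TXNRD1, SRXN1 and TXN. They were chosen by name, as textbook genes of the antioxidant response, with earlier results of these data known. The table of expression values holds 32152 genes, and all 8 members are in it and passed the filter on low values. The 12 RNA libraries come from established human lines of triple-negative breast cancer, MDA-MB-231 and Hs-578T. For each line there were 2 libraries of parental controls, 2 labelled ERK5ko (ERK5-ko below) and 2 labelled MEK5DD. ERK5 is a MAP kinase encoded by MAPK7, and MEK5DD is a variant of its upstream kinase MEK5 that is always active. The control libraries are labelled parental control, and none of the 12 libraries is labelled as an empty-vector control. ERK5-ko cells were made with Cas9 and guides against MAPK7, sorted for GFP and grown from single cells. In MDA-MB-231 the ERK5-ko cells are 1 surviving clone, and for Hs-578T the sequenced clone is not named in the sources used here, nor is the way the MEK5DD cells were made. The passage labels are 29 and 30 for MDA-MB-231 parental controls, 7 and 8 for ERK5-ko and 10 and 11 for MEK5DD. In Hs-578T they are 83 and 84 for parental controls and 8 and 9 for both engineered groups. In any comparison with parental controls, passage and single-cell cloning cannot be told apart from genotype.

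NRF2 is held at a low level in unstressed cells by KEAP1, an adaptor that hands it to a ubiquitin ligase. Oxidants and electrophiles modify KEAP1, NRF2 builds up in the nucleus, pairs with a small MAF protein and binds antioxidant response elements (AREs) near its target genes, while BACH1 competes for many of the same elements. NRF2 is regulated mostly as a protein, so the RNA of NFE2L2 is not a measure of its activity. Its targets make glutathione, recycle thioredoxin, reduce quinones and break down heme, and many tumours depend on them to withstand oxidative stress and drugs.

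The core of the ARE, TGACNNNGC, was searched on both strands of the 250 bases before each RefSeq transcription start (GRCh38.p14), and the matches among the members are shown because they are the letters through which NRF2 is known to act. Of 35116 starts in the table, 10.9% hold this core, which may overlap sites of AP-1 factors. Starts were listed for 7 members, 9 starts in all, and 3 of these starts, in 2 members, had a match. In GCLM the match lies 34 to 26 bases before the start, in a window at chr1:93909436-93909484. In TXNRD1 it lies 99 to 91 bases before the first start listed, in a window at chr12:104215660-104215708, and 102 to 94 bases before the second, in a window at chr12:104286910-104286958. Each window is given in the direction of its gene, with the core in capitals. In GCLM and at the second TXNRD1 start the core is on the opposite strand and is read there as TGACTAAGC and TGACAAAGC.
GCLM: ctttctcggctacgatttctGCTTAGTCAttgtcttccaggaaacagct
TXNRD1, first start: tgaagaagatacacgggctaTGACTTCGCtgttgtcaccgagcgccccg
TXNRD1, second start: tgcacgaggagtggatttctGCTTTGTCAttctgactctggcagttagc
A match is a description of these letters only, and starts without one may have elements farther away.

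The values are RPKM, the reads on a gene scaled to the kilobases of its gene model and to the size of its library. Library totals lay between 20248162 and 27791195 reads, and the members rested on between 384 reads (GCLC) and 39896 reads (TXNRD1) in a library. MAPK7 RNA in the libraries labelled ERK5-ko was not below that of their parental controls, with 16.3 and 17.8 RPKM against 13.3 and 14.3 in MDA-MB-231 and 17.8 and 18.1 against 14.0 and 16.0 in Hs-578T, so that directions below refer to the labels. The paper reports that clones were checked by qRT-PCR and Western blot. On its Western blots, ERK5 protein was strongly reduced in the ERK5-ko cells of both lines. Reads over the whole gene do not measure its protein. MAP2K5, the gene of MEK5, was at 188 and 184 RPKM in MDA-MB-231 libraries labelled MEK5DD against 12.9 and 13.6 in parental controls, and at 21.3 and 23.8 against 14.6 and 16.9 in Hs-578T. The triple-negative label fits ESR1 (at most 0.120 RPKM) and PGR (at most 0.348 RPKM), whereas ERBB2 was at 27.8 to 56.8 RPKM. The mesenchymal marker VIM was at 1598 to 4067 RPKM in all libraries, and the epithelial marker EPCAM was at most 0.0862 RPKM in Hs-578T but at 7.08 to 25.7 RPKM in MDA-MB-231. The leukocyte marker PTPRC reached 0.396 RPKM at most, and the endothelial marker PECAM1 lay between 2.81 and 6.48 RPKM in Hs-578T and at most at 0.841 RPKM in MDA-MB-231. The lower level of a gene in bulk RNA can come from fewer cells that express it or from less RNA per cell, which cannot be told apart.

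NFE2L2 (ENSG00000116044.15, chromosome 2, 177227595 to 177392697, minus strand) was similar in both parental lines, at 106 and 105 RPKM in MDA-MB-231 and 106 and 114 RPKM in Hs-578T. In libraries labelled ERK5-ko it was at 115 and 112 RPKM in MDA-MB-231 and 94.1 and 95.1 RPKM in Hs-578T. MEK5DD libraries had 92.7 and 89.0 RPKM in MDA-MB-231 and 71.3 and 82.5 RPKM in Hs-578T. The highest of all 12 values was 1.61 times the lowest, and in each line the MEK5DD pair was the lowest, below both parental libraries. By group mean the order ran from Hs-578T MEK5DD (76.9 ± 7.89 RPKM, SD, n = 2) to MDA-MB-231 ERK5-ko (114 ± 2.0 RPKM, SD, n = 2), and of neighbours in this order only the top pair overlapped, MDA-MB-231 ERK5-ko with parental Hs-578T.

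NQO1 (ENSG00000181019.12, chromosome 16, 69706996 to 69726951), which reduces quinones with NAD(P)H, separated the lines most clearly. Parental MDA-MB-231 libraries had 138 and 137 RPKM and parental Hs-578T libraries 532 and 564 RPKM. In MDA-MB-231 the libraries labelled ERK5-ko were at 182 and 191 RPKM and those labelled MEK5DD at 166 and 143 RPKM, all above the parental pair. In Hs-578T, ERK5-ko libraries were at 320 and 314 RPKM and MEK5DD libraries at 367 and 368 RPKM, all below the parental pair. No 2 of the 6 groups overlapped, and the parental controls were thus the lowest group in one line and the highest in the other.

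HMOX1 (ENSG00000100292.16, chromosome 22, 35380361 to 35394214) encodes heme oxygenase 1, which opens the heme ring and frees its iron. It stood at 25.5 and 26.4 RPKM in MDA-MB-231 parental controls, 35.0 and 42.0 RPKM in ERK5-ko and 50.8 and 55.9 RPKM in MEK5DD libraries. These 3 groups did not overlap. In Hs-578T the parental controls were highest instead, with 49.99 and 52.1 RPKM in parental controls, 31.9 and 30.4 RPKM in ERK5-ko and 33.4 and 39.5 RPKM in MEK5DD libraries. Both engineered groups of Hs-578T lay below its parental pair. Across the lines, Hs-578T MEK5DD overlapped MDA-MB-231 ERK5-ko, while parental Hs-578T overlapped MDA-MB-231 MEK5DD.

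GCLC (ENSG00000001084.10, chromosome 6, 53497341 to 53616970) and GCLM (ENSG00000023909.9, chromosome 1, 93885205 to 93909456) encode the catalytic and the modifier subunit of glutamate-cysteine ligase, the enzyme of the first step of glutathione synthesis. GCLC was the least abundant member, at 16.6 and 16.1 RPKM in MDA-MB-231 parental controls, 16.8 and 16.3 RPKM in ERK5-ko and 14.9 and 14.3 RPKM in MEK5DD libraries. In Hs-578T it was at 15.4 and 18.2 RPKM in parental controls, 17.3 and 18.7 RPKM in ERK5-ko and 11.8 and 14.8 RPKM in MEK5DD libraries. The 4 highest groups of GCLC overlapped their neighbours among these 4, and the MEK5DD groups of both lines, which overlapped each other, were below them. GCLM was at 35.2 and 35.1 RPKM in MDA-MB-231 parental controls, 32.9 and 34.1 RPKM in ERK5-ko and 35.1 and 33.6 RPKM in MEK5DD libraries. In Hs-578T its values were 27.1 and 27.8 RPKM in parental controls, 29.2 and 32.8 RPKM in ERK5-ko and 24.3 and 24.7 RPKM in MEK5DD libraries. GCLM had the narrowest range of the members, with the highest value 1.45 times the lowest, and every MDA-MB-231 library was above every Hs-578T library. GCLC over GCLM, a ratio of RPKM values within a library, ranged from 0.424 in MDA-MB-231 MEK5DD to 0.611 in Hs-578T parental controls by group mean.

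TXNRD1 (ENSG00000198431.15, chromosome 12, 104215779 to 104350305) encodes the cytosolic thioredoxin reductase, a selenoenzyme that recharges thioredoxin with electrons from NADPH. It varied most of the 8 members, with the highest library 7.65 times the lowest. In MDA-MB-231 it was at 437 and 411 RPKM in parental controls, 885 and 799 RPKM in ERK5-ko and 172 and 177 RPKM in MEK5DD libraries. These 3 groups lay far apart. Hs-578T libraries had 133 and 143 RPKM in parental controls, 167 and 237 RPKM in ERK5-ko and 116 and 143 RPKM in MEK5DD libraries. There the ERK5-ko pair was above the others, although its replicates were far from each other, and the parental and MEK5DD pairs overlapped. An antisense gene, RP11-818F20.5, overlaps TXNRD1 by 18409 bases and had between 12 and 179 reads in a library. These are few beside the 4677 to 39896 reads of TXNRD1, and whether reads were counted by strand is not given in the sources used here.

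TXN (ENSG00000136810.12, chromosome 9, 110243811 to 110256640) encodes thioredoxin, the small protein that TXNRD1 keeps reduced. Its values in MDA-MB-231 were 454 and 448 RPKM in parental controls, 494 and 484 RPKM in ERK5-ko and 541 and 513 RPKM in MEK5DD libraries. In Hs-578T they were 315 and 258 RPKM in parental controls, 275 and 302 RPKM in ERK5-ko and 330 and 282 RPKM in MEK5DD libraries. All MDA-MB-231 libraries were above all Hs-578T libraries, whose 3 groups overlapped. The ratio of TXNRD1 to TXN in RPKM was 0.940 ± 0.0333 (SD, n = 2) in parental MDA-MB-231, 1.72 ± 0.0999 (SD, n = 2) in ERK5-ko and 0.331 ± 0.0189 (SD, n = 2) in MEK5DD libraries. In Hs-578T the ratio was 0.489 ± 0.0958, 0.697 ± 0.124 and 0.429 ± 0.111 (SD, n = 2 each) in the same order. In MDA-MB-231 the 3 groups were thus separate in this ratio, and in Hs-578T the parental and MEK5DD libraries overlapped.

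**Figure D1:**
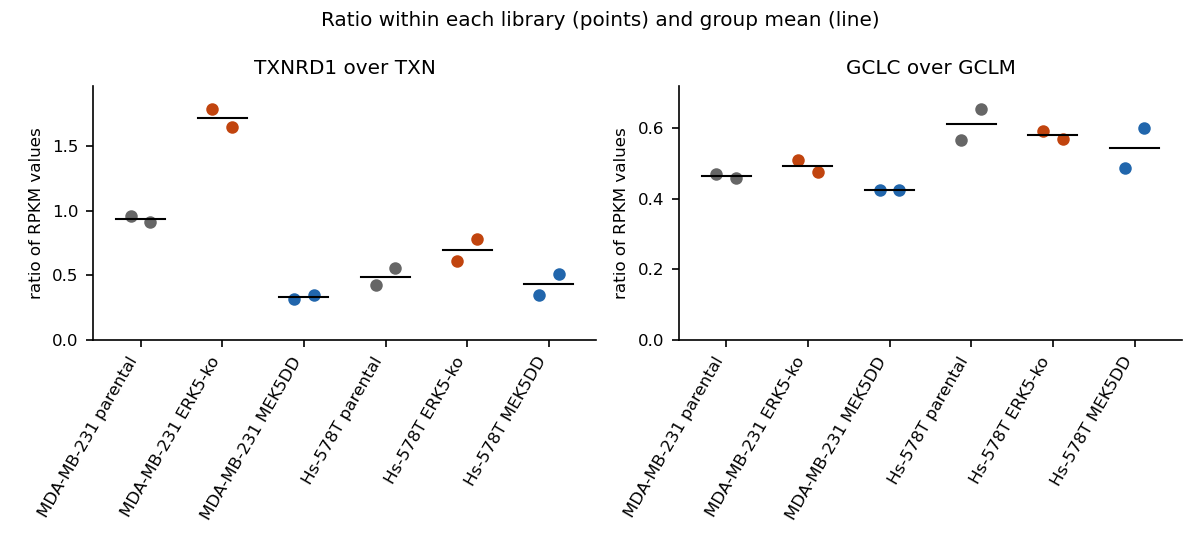
Ratio of RPKM values within each library, TXNRD1 over TXN on the left and GCLC over GCLM on the right (points, 2 libraries per group; line, group mean; grey parental, orange ERK5-ko, blue MEK5DD). TXNRD1 exceeded TXN only in the 2 MDA-MB-231 libraries labelled ERK5-ko, at 1.79 and 1.65.

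SRXN1 (ENSG00000271303.1, chromosome 20, 646615 to 653370) encodes sulfiredoxin, which repairs over-oxidised peroxiredoxins. In MDA-MB-231 it was at 39.2 and 38.6 RPKM in parental controls, 43.0 and 44.5 RPKM in ERK5-ko and 36.5 and 36.3 RPKM in MEK5DD libraries. In Hs-578T its values were 31.1 and 25.7 RPKM in parental controls, 33.9 and 35.1 RPKM in ERK5-ko and 34.6 and 31.6 RPKM in MEK5DD libraries. The 3 MDA-MB-231 groups were separate from each other and above all Hs-578T groups. SRXN1 is uncertain, since another protein-coding gene model (ENSG00000270299.1) covers 6745 of its bases on the same strand and held between 97.8% and 99.2% of the SRXN1 read number in every library. Reads of the pair cannot be assigned to either.

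**Figure D2:**
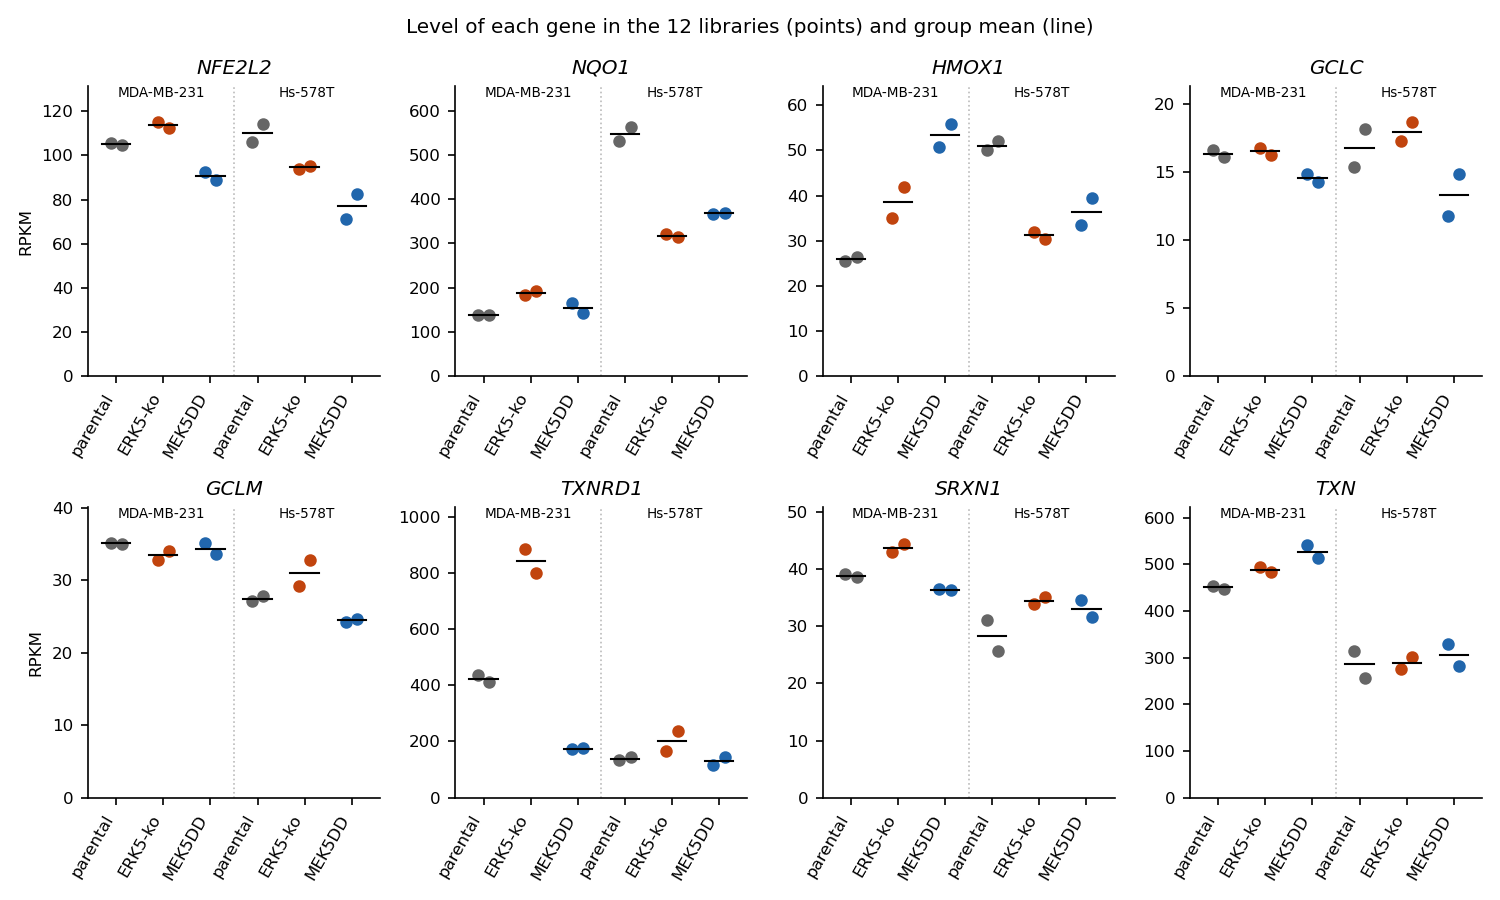
RPKM of the 8 members (one panel each, axis from 0) in the 12 libraries, MDA-MB-231 left and Hs-578T right of the dotted line (points, 2 libraries per group; line, group mean; grey parental, orange ERK5-ko, blue MEK5DD). TXNRD1 spans 116 to 885 RPKM, and with the ERK5-ko label NQO1 and HMOX1 are above the grey parental points in MDA-MB-231 and below them in Hs-578T.

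The first question was how the parental lines differ. TXNRD1, TXN, SRXN1 and GCLM were higher in MDA-MB-231, and NQO1 and HMOX1 were higher in Hs-578T. A change here is a log2 fold change of RPKM + 0.5, fitted with limma across 13737 protein-coding genes and called at a Benjamini-Hochberg adjusted p under 0.05. TXNRD1 differed by 1.62 (SE 0.152, adjusted p = 1.33e-06), TXN by 0.66 (SE 0.116, adjusted p = 0.00026), SRXN1 by 0.46 (adjusted p = 0.00118) and GCLM by 0.35 (adjusted p = 0.00248). NQO1 differed by -1.99 (SE 0.0911, adjusted p = 1.94e-09), a level in MDA-MB-231 0.251 times that in Hs-578T, and HMOX1 by -0.96 (SE 0.11, adjusted p = 7.59e-06). NFE2L2 itself did not pass (-0.07, 95% interval -0.26 to 0.13), nor did GCLC (-0.03, -0.29 to 0.23). Of the 8 members 4 were called higher and 2 lower, where 46.0% of all tested genes were called higher and 31.3% lower. The members' median difference was 0.16 and that of all genes 0.19. With median-ratio scaling the median of all genes moved from 0.19 to -0.02 and the share of calls that are higher from 59.5% to 48.7%, and GCLM (0.12, adjusted p = 0.193) and SRXN1 (0.22, adjusted p = 0.0615) no longer passed while NFE2L2 did (-0.30, adjusted p = 0.00565). With quantile normalization GCLM did not pass (0.16, adjusted p = 0.0858) and GCLC did (-0.26, adjusted p = 0.035).

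The comparisons of engineered with parental cells ask how the members change when ERK5 is targeted or its activating kinase is made constantly active. Each line's ERK5-ko and MEK5DD comparisons share the same 2 parental libraries. In MDA-MB-231, TXNRD1, HMOX1 and NQO1 were higher in libraries labelled ERK5-ko, and no member was lower. TXNRD1 changed by 0.99 (SE 0.152, adjusted p = 0.00125), a 1.98-fold higher level, HMOX1 by 0.55 (SE 0.11, adjusted p = 0.00546) and NQO1 by 0.44 (SE 0.0911, adjusted p = 0.00672). The other 5 members did not pass, with NFE2L2 at 0.11 (95% interval -0.08 to 0.31), TXN at 0.12, SRXN1 at 0.17, GCLC at 0.01 and GCLM at -0.07. The 95% intervals of the glutathione subunits ran from -0.25 to 0.28 (GCLC) and from -0.25 to 0.12 (GCLM). Of all tested genes 6.91% were called higher and 10.4% lower in this comparison, and the median change was 0.14 for the members and -0.04 for all genes. Of all calls 39.9% were higher as fitted, 52.8% with median-ratio scaling and 50.6% with quantile normalization, and the 3 members were called with each. TXNRD1 passed under each alternative tried, and in a fit of MDA-MB-231 alone SRXN1 passed too (adjusted p = 0.0289). HMOX1 and NQO1 were no longer called without parental replicate 1 (adjusted p = 0.0544 and 0.059) or without ERK5-ko replicate 2 (0.0639 and 0.0619), which left 1 member passing, nor was NQO1 without parental replicate 2 (0.0612).

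In Hs-578T, libraries labelled ERK5-ko had less NQO1 and HMOX1 and more TXNRD1 and SRXN1 than parental controls. NQO1 fell by 0.79 on the log2 scale (SE 0.0911, adjusted p = 6.09e-05), to 0.579 times the parental level, and HMOX1 fell by 0.70 (SE 0.11, adjusted p = 0.000487). TXNRD1 rose by 0.53 (SE 0.152, adjusted p = 0.017) and SRXN1 by 0.28 (SE 0.0983, adjusted p = 0.0386). NFE2L2 was at -0.22 (adjusted p = 0.0714) but it passed once the replicate block was added (adjusted p = 0.0312) and with median-ratio scaling (-0.25, adjusted p = 0.0322). GCLC, GCLM and TXN did not pass, at 0.10, 0.17 and 0.02. Calls covered 2 members in each direction, beside 19.7% of all genes higher and 19.7% lower, and the median was 0.06 for the members and 0.01 for all genes. The calls of the lower pair held under each normalization, filter and left-out library. TXNRD1 was not called without parental replicate 1 (0.47, adjusted p = 0.0799) or ERK5-ko replicate 2 (0.28, adjusted p = 0.192), and SRXN1 not without parental replicate 2 (adjusted p = 0.265), ERK5-ko replicate 1 (0.0897) or replicate 2 (0.172), nor with median-ratio scaling (0.0631), quantile normalization (0.0537) or in a fit of Hs-578T alone (0.157), as for TXNRD1 (0.107).

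In MDA-MB-231 libraries labelled MEK5DD, HMOX1 was higher and TXNRD1 lower than in parental controls, and no other member was called. HMOX1 rose by 1.02 (SE 0.11, adjusted p = 1.95e-05), a 2.03-fold higher level, and TXNRD1 fell by 1.28 (SE 0.152, adjusted p = 4.24e-05), to 0.412 times the parental level. NFE2L2 was at -0.21 (adjusted p = 0.0792) and passed with the replicate block (adjusted p = 0.0357). NQO1 was at 0.17 (95% interval -0.03 to 0.37), TXN at 0.23 (-0.03 to 0.48), GCLC at -0.16, GCLM at -0.03 and SRXN1 at -0.09, none of them called. Here 17.5% of all genes were called higher and 23.8% lower, with 42.5% of calls higher, against 52.9% with quantile normalization. The median was -0.06 for the members and -0.01 for all genes. Both member calls held under each alternative tried, left-out libraries included, and in a fit of MDA-MB-231 alone NFE2L2 (adjusted p = 0.00748) and TXN (adjusted p = 0.0114) passed too.

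In Hs-578T, MEK5DD libraries had less NFE2L2, NQO1 and HMOX1, and no member was higher. NQO1 fell by 0.58 (SE 0.0911, adjusted p = 0.00124), NFE2L2 fell by 0.52 (SE 0.0882, adjusted p = 0.00187) and HMOX1 fell by 0.48 (SE 0.11, adjusted p = 0.00911), to between 0.671 and 0.715 times the parental level. TXNRD1 was at -0.10 (95% interval -0.43 to 0.23), TXN at 0.10, GCLM at -0.16 and SRXN1 at 0.22 (adjusted p = 0.125). GCLC was at -0.33 (adjusted p = 0.0707) and passed with the replicate block (adjusted p = 0.0151), without parental replicate 1 (0.045) and without MEK5DD replicate 2 (0.00979). Among all genes 6.44% were called higher and 17.0% lower, and the median was -0.24 for the members and -0.08 for all genes. The split of calls depended on the scaling, with 27.5% of calls higher as fitted, 44.2% with median-ratio scaling and 46.4% with quantile normalization. SRXN1 passed with either of these scalings (adjusted p = 0.047 and 0.0454) and without parental replicate 1 (0.0317), which with GCLC gave 5 members passing, and HMOX1 did not pass in a fit of Hs-578T alone (0.0641).

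HMOX1 and NQO1 rose with the ERK5-ko label in one line and fell in the other, and the difference between the lines was tested directly. The ERK5-ko change of HMOX1 was larger in MDA-MB-231 by 1.26 on the log2 scale (SE 0.156, 95% interval 0.91 to 1.60, adjusted p = 0.000107) and that of NQO1 by 1.23 (SE 0.129, 0.95 to 1.51, adjusted p = 3.47e-05). These 2 of 8 members were called, beside 18.3% of all genes with a larger and 21.5% with a smaller change in MDA-MB-231. For TXNRD1, which rose in both lines, the difference was 0.46 (adjusted p = 0.109), and for NFE2L2 it was 0.33 (adjusted p = 0.0541). With the replicate block TXNRD1 (adjusted p = 0.0192) and NFE2L2 (adjusted p = 0.0227) passed, which made 4 members, as they did with median-ratio scaling (0.0464 and 0.0131). NFE2L2 passed as well without the filter on low values (0.0488) and in a fit of the compared libraries alone (0.0271). TXNRD1 also passed without Hs-578T ERK5-ko replicate 2 (0.71, adjusted p = 0.0178). GCLC (-0.09), GCLM (-0.24), SRXN1 (-0.12) and TXN (0.10) gave no call.

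The MEK5DD change also differed between the lines, in HMOX1, NQO1 and TXNRD1. It was larger in MDA-MB-231 by 1.51 for HMOX1 (SE 0.156, adjusted p = 2.4e-05) and by 0.74 for NQO1 (SE 0.129, adjusted p = 0.000955), and smaller for TXNRD1 (-1.18, SE 0.214, adjusted p = 0.00126). All genes were called larger in 21.3% and smaller in 18.2%. MAP2K5 itself rose by 3.77 with this label in MDA-MB-231 and by 0.50 in Hs-578T. Cell line and the level of MAP2K5 cannot be told apart in this contrast. NFE2L2 (0.31, adjusted p = 0.0712) passed with the replicate block (adjusted p = 0.0313) and without Hs-578T MEK5DD replicate 2 (0.41, adjusted p = 0.00859). SRXN1 (-0.32, adjusted p = 0.0914) passed without that library (adjusted p = 0.0472) and without Hs-578T parental replicate 1 (adjusted p = 0.0188), so that 5 members passed in the first case. GCLC, GCLM and TXN were at 0.17, 0.13 and 0.13 and were not called.

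**Figure D3:**
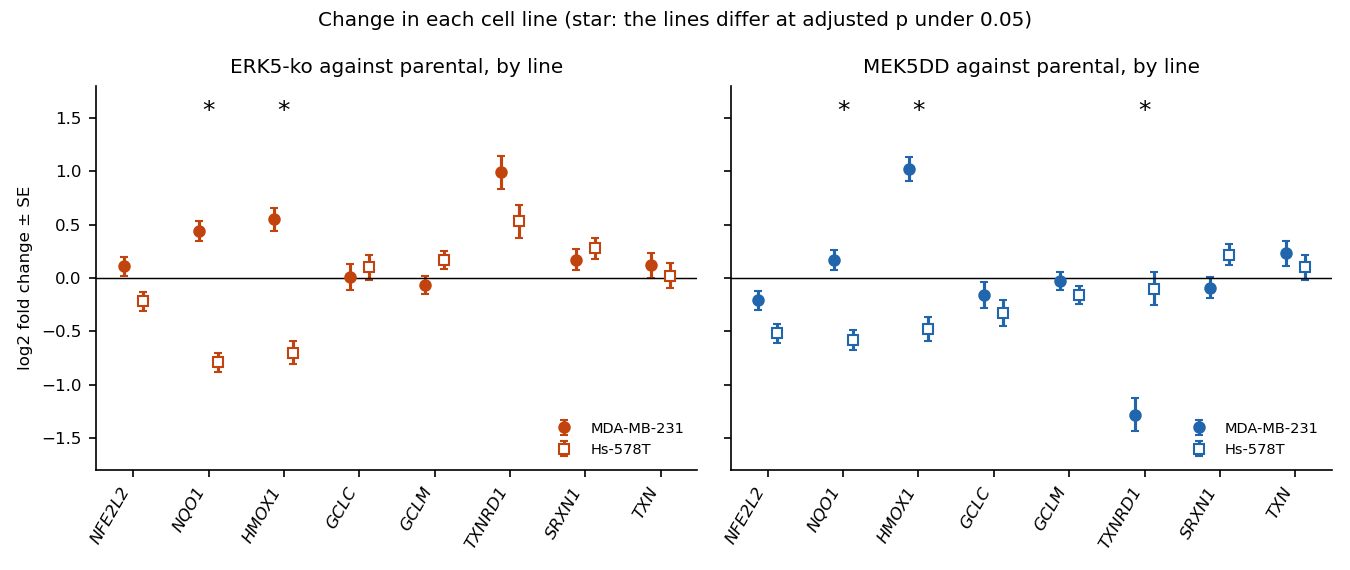
Log2 fold change of RPKM + 0.5 against parental controls with its standard error, for libraries labelled ERK5-ko (left) and MEK5DD (right), in MDA-MB-231 (filled circles) and Hs-578T (open squares). Stars mark members whose change differed between the lines at an adjusted p under 0.05: NQO1 and HMOX1 in both panels and TXNRD1 with MEK5DD.

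ERK5-ko and MEK5DD libraries were also set against each other within a line, which leaves the parental passages out. In Hs-578T both groups carry the passage labels 8 and 9, but in MDA-MB-231 they are 7 and 8 against 10 and 11. ERK5-ko cells were grown from single cells and the making of MEK5DD cells is not given. Cloning and handling therefore cannot be told apart from genotype here either. In MDA-MB-231, TXNRD1 was 4.81-fold higher in ERK5-ko libraries (2.27, SE 0.152, adjusted p = 2.44e-07). NFE2L2 (0.32, adjusted p = 0.00851), NQO1 (0.28, adjusted p = 0.0223) and SRXN1 (0.26, adjusted p = 0.042) were higher and HMOX1 (-0.47, adjusted p = 0.00344) was lower there. Of all genes 27.1% were called higher and 27.9% lower. TXNRD1 and HMOX1 were called without any 1 of the 4 libraries. SRXN1 was not called without any 1 of them (adjusted p 0.0939 to 0.159), NQO1 not without either ERK5-ko library (0.0528 and 0.12) or MEK5DD replicate 2 (0.235), and NFE2L2 not without ERK5-ko replicate 1 (0.0512) or MEK5DD replicate 2 (0.0653), so that 2 to 4 members passed. In a fit of MDA-MB-231 alone, its parental libraries included, GCLC passed too (0.17, adjusted p = 0.0357).

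In Hs-578T the same comparison called TXNRD1 (0.63, SE 0.152, adjusted p = 0.0052), GCLC (0.43, SE 0.12, adjusted p = 0.0117), GCLM (0.33, SE 0.0843, adjusted p = 0.0071) and NFE2L2 (0.30, SE 0.0882, adjusted p = 0.0151) higher in ERK5-ko libraries and no member lower. Both subunits of glutamate-cysteine ligase were thus called in this comparison. NQO1 (-0.21, adjusted p = 0.073), HMOX1 (-0.22, adjusted p = 0.122), TXN (-0.08) and SRXN1 (0.06) were not called. All genes were called higher in 30.7% and lower in 19.2%, a split of 61.5% higher that became 48.5% with median-ratio scaling and 49.9% with quantile normalization. Without ERK5-ko replicate 2 no member passed (adjusted p 0.0643 to 0.087 for these 4), nor in a fit of Hs-578T alone (0.0546 to 0.084). Without MEK5DD replicate 1, GCLC (0.0844) and NFE2L2 (0.0739) were not called and HMOX1 was (-0.34, adjusted p = 0.0359), and without ERK5-ko replicate 1 NFE2L2 was not (0.0548). With median-ratio scaling NFE2L2 did not pass (0.0863) and NQO1 (0.0124) and HMOX1 (0.0242) did, as did HMOX1 with quantile normalization (0.0266).

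The wider pathway was described with 8 lists of 138 other genes, of which 134 are in the table and 127 were tested. Of the 127, in ERK5-ko libraries of MDA-MB-231, 27 were higher (21.3%) and 9 lower (7.09%), with a median change of 0.16, beside 6.91% and 10.4% of all tested genes. The list of quinone and carbonyl detoxification had 9 of 24 higher and 2 lower, and glutathione 7 of 27 higher and 1 lower. The genes named for these lists are examples among those of largest change whose call held without each library in turn. CYP1B1, which oxidises hydrocarbons and estrogens, rose by 1.57 (156 and 163 to 483 and 467 RPKM, adjusted p = 7.81e-05). The export pump ABCG2 rose by 1.70 (2.24 and 2.26 to 7.83 and 9.07 RPKM, adjusted p = 2.5e-05), ABCC3 by 0.85 (adjusted p = 0.000705) and MGST1, a microsomal glutathione transferase, by 0.85 (adjusted p = 0.00019). CAT, the catalase that splits hydrogen peroxide, rose by 0.52 (adjusted p = 0.00221) and ME1, which makes NADPH from malate, by 0.68 (adjusted p = 0.00175). IDH2, a mitochondrial source of NADPH, fell by 0.73 (adjusted p = 0.000501) and the transferrin receptor TFRC fell by 0.66 (adjusted p = 0.00276). Without 1 of the 4 libraries, 11 to 17 genes were higher and 3 to 5 lower, namely 11 and 4 without parental replicate 1, 11 and 3 without parental replicate 2, 17 and 5 without ERK5-ko replicate 1, and 12 and 5 without ERK5-ko replicate 2. In a fit of MDA-MB-231 alone 39 were higher and 14 lower.

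In Hs-578T libraries labelled ERK5-ko, 16 of the 127 genes were higher (12.6%) and 48 lower (37.8%), with a median change of -0.14, beside 19.7% of all tested genes in each direction. Lower genes included 12 of 24 in quinone and carbonyl detoxification, 10 of 27 in glutathione, 8 of 18 in thioredoxin and peroxiredoxin, 6 of 15 in NADPH supply and 6 of 12 in heme and iron. ABCC3 fell by 2.68 (38.5 and 46.4 to 6.64 and 5.76 RPKM, adjusted p = 4.57e-08) and CYP1B1 fell by 1.32 (adjusted p = 7.91e-05), both called higher in MDA-MB-231. CAT fell by 0.43 (adjusted p = 0.00242) and IDH2 fell by 1.07 (adjusted p = 1.08e-05). TXNRD3, a relative of TXNRD1, fell by 1.37 (adjusted p = 3.5e-06), PGLS of the pentose phosphate pathway fell by 1.31 (adjusted p = 1.14e-05) and the ferritin light chain FTL fell by 0.85 (adjusted p = 0.00197). NFE2, a relative of NFE2L2, fell by 1.90 (5.71 and 6.15 to 1.20 and 1.24 RPKM, adjusted p = 4.02e-07), and MAFF, a small MAF partner, rose by 0.84 (adjusted p = 2.88e-05). CES1, a carboxylesterase, rose by 2.68 (0.401 and 0.619 to 5.41 and 6.55 RPKM, adjusted p = 2.24e-07). The methionine sulfoxide reductase MSRA rose by 1.44 (adjusted p = 3.79e-06) and ABCG2 by 0.69 (adjusted p = 0.00284). Without ERK5-ko replicate 2, 31 genes were lower, and in a fit of Hs-578T alone 27.

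In MDA-MB-231 MEK5DD libraries 26 of the 127 genes were higher (20.5%) and 49 lower (38.6%), with a median of -0.07, beside 17.5% and 23.8% of all tested genes. Quinone and carbonyl detoxification had 13 of 24 lower and 4 higher, superoxide and catalase 5 of 8 lower and 3 higher, and glutathione 9 of 27 in each direction. ALDH2, which clears acetaldehyde, fell by 2.19 (28.9 and 30.1 to 5.73 and 6.47 RPKM, adjusted p = 3.61e-08) and CYP1B1 fell by 1.70 (156 and 163 to 51.0 and 46.5 RPKM, adjusted p = 6.33e-06). ABCC3 fell by 2.40 (adjusted p = 3.61e-08) and ABCG2 fell by 1.0 (adjusted p = 0.000185), pumps that were higher with the ERK5-ko label in this line. FECH, which puts iron into heme, fell by 1.72 (adjusted p = 6e-08) and SLC40A1, the iron exporter ferroportin, fell by 1.16 (adjusted p = 9.83e-05). TXNRD3 fell by 0.89 (adjusted p = 4.75e-05) and GSTM3, a glutathione transferase, fell by 1.57 (adjusted p = 0.000105), whereas SESN3, a sestrin, rose by 1.45 (4.76 and 5.19 to 14.9 and 14.0 RPKM, adjusted p = 3.95e-05). Without 1 library, 14 genes were higher (parental replicate 1 or MEK5DD replicate 2) or 15 (parental replicate 2 or MEK5DD replicate 1).

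In Hs-578T MEK5DD libraries 13 of the 127 genes were higher (10.2%) and 25 lower (19.7%), with a median of -0.08, beside 6.44% and 17.0% of all tested genes. Quinone and carbonyl detoxification had 7 of 24 lower and 1 higher. Its aldo-keto reductases AKR1C2 and AKR1C1, near-identical neighbours whose reads are hard to assign, fell by 1.55 (26.7 and 25.2 to 8.22 and 8.79 RPKM, adjusted p = 2.51e-05) and by 1.43 (-1.43, adjusted p = 9.45e-05). TKT, a transketolase of the pentose phosphate pathway, fell by 0.61 (adjusted p = 0.00107) and CAT fell by 0.50 (adjusted p = 0.00208). NFE2L3, another relative of NFE2L2, fell by 1.05 (adjusted p = 3.36e-05), TFRC fell by 0.63 (adjusted p = 0.00271), ABCC1 fell by 0.76 (adjusted p = 0.00435) and GSTO1 rose by 0.82 (adjusted p = 0.00351). In a fit of Hs-578T alone TFRC (0.053), ABCC1 (0.0817) and GSTO1 (0.071, adjusted p) did not pass, and 2 genes of the 127 were higher and 12 lower. Without parental replicate 2, 7 genes were higher, and without MEK5DD replicate 2, 26.

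**Figure D4:**
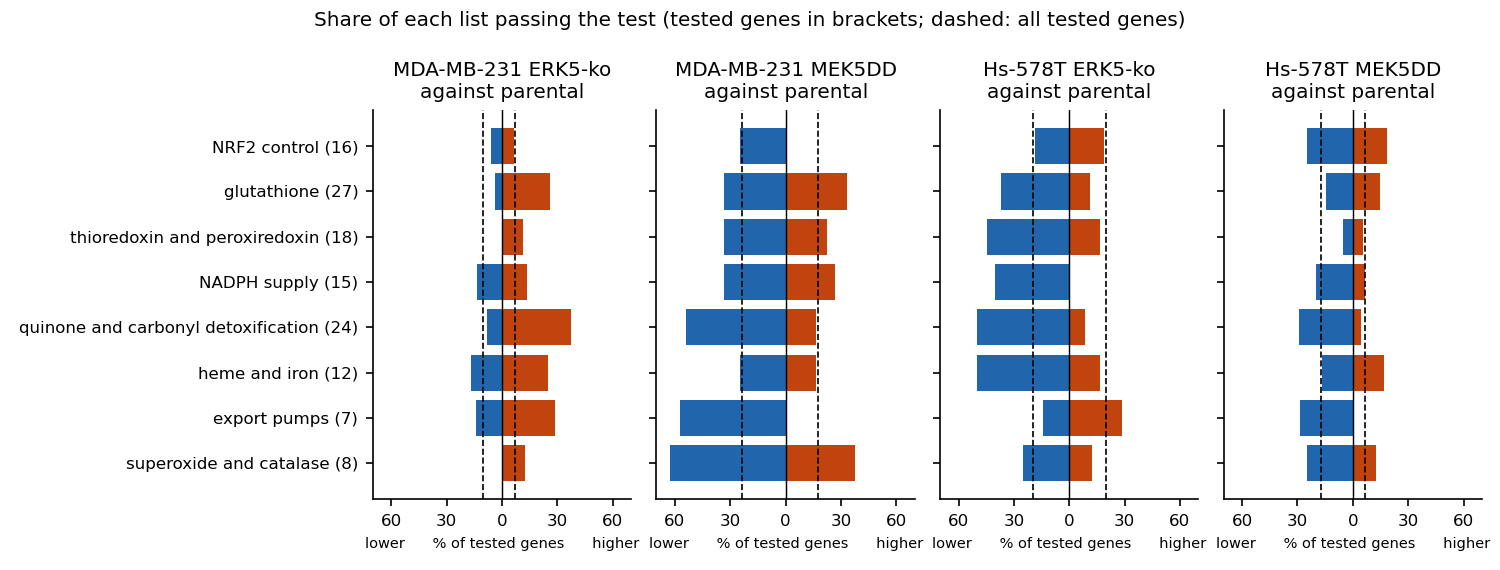
Share of the tested genes of each pathway list (number in brackets) called higher (orange, to the right) or lower (blue, to the left) against parental controls, in percent, with dashed lines for all 13737 tested genes. Quinone and carbonyl detoxification has 9 of 24 genes higher in MDA-MB-231 ERK5-ko libraries and 12 of 24 lower in those of Hs-578T.

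The genes most like each member over the 12 libraries, by Pearson's r of log2 values after the mean of each line was removed, are given as a description. For TXNRD1 they were TMEM65 (r = 0.986) and MBNL2 (r = 0.983), for NFE2L2 NRBP1 (0.985) and SERINC5 (0.966) and for NQO1 TOM1L1 (0.945) and HOOK2 (0.935). HMOX1 was most like PRRX1 (0.940) and MARCH9 (0.927), GCLC like TGOLN2 (0.984) and PICALM (0.972), GCLM like PPID (0.968) and MB21D1 (0.967) and TXN like EMC4 (0.922) and UXT (0.907). SRXN1 was most like the gene model with which it shares bases (r = 1.0) and UBXN8 (0.948). No member was the nearest gene of another. Among members r was highest between NFE2L2 and GCLC (0.81) and between GCLC and GCLM (0.76), was 0.64 between NQO1 and HMOX1, and was lowest between GCLC and TXN (-0.64). These 12 points are 6 groups of 2 libraries, so that r rests mainly on 6 group means.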

How the data were processed

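RNA was sequenced in 12 libraries of 6 groups, 2 libraries each, grouped by cell line and label. Values deposited by the authors are RPKM, in which reads are scaled to gene length and library size. The submitters' processing notes name bcl2fastq, Trimmomatic 0.32, TopHat2 2.1.1, R 3.3.1, DESeq2 1.12.4 and GRCh38. The counting tool, its use of strand and the annotation are not given in the sources used here. Libraries came from a stranded mRNA kit.

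Each library's total and whole reads were solved from the RPKM values. All 32152 genes gave whole reads within 0.0001 (100.0%), and with totals 1% off 0 of 500 did. Replicates differed by more than counting noise (chi-square per degree of freedom 2.82 to 41.9). The highest values were in Hs-578T MEK5DD (41.9) and Hs-578T parental controls (30.7), and the other groups reached at most 8.78. The main fit shares one estimate of the spread of a gene among all groups. It may thus understate the spread of these Hs-578T groups and overstate that of the others. Counting error is small at this depth, and nothing says that replicates were separate cultures, so p values measure only the spread between these libraries.

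The fit took the 13737 protein-coding genes that reached 0.5 RPKM in 2 libraries or more. Their log2(RPKM + 0.5) was modelled by 6 group means in limma 3.58.1 (R 4.3.3), with a mean-variance trend and 6 residual degrees of freedom, and Benjamini-Hochberg adjustment in each of 9 comparisons. This scale understates the change of low genes. With 2 against 2, an exact permutation test of 1 gene cannot go below p = 0.333. A gene passed at an adjusted p under 0.05. The members, lists and tests were chosen with earlier results of these data known. Named genes are the 8 members, MAPK7, MAP2K5, at most 2 genes per list of largest change among passing genes whose mean RPKM reached 1, and the 2 genes most like each member. One gene that this rule names is not reported here.

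The main fit ignored replicate numbers, and 1 alternative, the replicate block, took them as pairs within a line. Deviations of same-numbered libraries correlated across genes between 0.107 and 0.541 in the 6 pairs of groups within a line. For pairs of groups from different lines, r lay between -0.418 and -0.06. Whether same-numbered libraries were handled together was not tested. Alternatives changed the pseudocount (0.1, 1), filter, gene types, scaling, libraries in the fit, fold threshold (above 1.5 or below 0.5), block and replicates kept, and used limma voom on whole reads, which called 2516 (MDA-MB-231) and 5495 (Hs-578T) genes for ERK5-ko and 5871 and 3006 for MEK5DD. Promoter sequences are from RefSeq. Python 3.11.15 was used with pandas 2.3.3, numpy 2.4.6, matplotlib 3.10.9 and scipy 1.17.1.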

Additional observations from a re-analysis of the deposited data

Results flagged for a closer look

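The change against parental controls differed between the lines, by the test of the difference itself (limma contrast of contrasts, Benjamini-Hochberg adjustment over all tested genes), in 5 cases. With the ERK5-ko label the difference, MDA-MB-231 minus Hs-578T on the log2 scale, was 1.26 for HMOX1 and 1.23 for NQO1, and each rose in one line and fell in the other. With MEK5DD it was 1.51 for HMOX1, 0.74 for NQO1 and -1.18 for TXNRD1. For the ERK5-ko label these are 2 of 8 members, beside 18.3% of all tested genes with a larger and 21.5% with a smaller change in MDA-MB-231. For MEK5DD they are 3 of 8, beside 21.3% and 18.2%. HMOX1 was higher in both MEK5DD libraries than in both parental controls of MDA-MB-231 and lower in both of Hs-578T, and TXNRD1 was lower in both of MDA-MB-231 and overlapped the parental pair in Hs-578T. Parental Hs-578T cells carry passage labels 83 and 84 and parental MDA-MB-231 cells 29 and 30, and their part in these differences was not tested. With the MEK5DD label MAP2K5 rose by 3.77 in MDA-MB-231 and by 0.50 in Hs-578T, so its level cannot be told apart from cell line.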

How the results depend on the processing

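Of 72 member results, 32 passed, and none of these 32 changed sign in the alternatives run. Over 1144 alternative values, 1034 kept direction and side of the threshold, 58 of called values no longer passed, 30 newly passed and 22 changed sign. With the replicate block 6 results newly passed, all given beside their values, 0 were lost, and no other member call changed, while the ERK5-ko difference between lines had 4 members passing, as with median-ratio scaling (4). The fold threshold left 1 member in MDA-MB-231 ERK5-ko, 0 in Hs-578T ERK5-ko, 0 in Hs-578T MEK5DD, 1 in each ERK5-ko against MEK5DD comparison and 3 between parental lines. Over the other pathway genes it left 11 higher and 1 lower in MDA-MB-231 ERK5-ko, 9 and 10 in Hs-578T ERK5-ko, 12 and 17 in MDA-MB-231 MEK5DD and 5 and 4 in Hs-578T MEK5DD. Of all 13737 tested genes it left 385 higher and 147 lower, 1285 and 449, 1049 and 867, and 398 and 204, in the same order. For ERK5-ko against MEK5DD it left 2401 and 841 in MDA-MB-231 and 2107 and 544 in Hs-578T, and 4679 and 2122 between parental lines. With a cut above 1.5 or below 0.5, between 54.7% and 79.5% of these calls were higher. This cut is not symmetric on the log2 scale and keeps smaller rises than falls. In Hs-578T ERK5-ko, NQO1 (0.579 times parental) and HMOX1 (0.615 times) were lost because they lie above 0.5. A fit of the compared line alone, with all its groups, gave 4 members in MDA-MB-231 ERK5-ko, 2 in Hs-578T ERK5-ko and 4 in MDA-MB-231 MEK5DD. It gave 2 in Hs-578T MEK5DD and 0 in Hs-578T ERK5-ko against MEK5DD. Without 1 replicate, where the lone library is assumed to vary like the other groups, 1 to 3 members passed in MDA-MB-231 ERK5-ko, 2 to 3 in Hs-578T ERK5-ko, 2 in MDA-MB-231 MEK5DD, 3 to 5 in Hs-578T MEK5DD, 2 to 4 and 0 to 4 in the ERK5-ko against MEK5DD comparisons of MDA-MB-231 and Hs-578T, 6 between parental lines, and 2 to 3 and 3 to 5 for the ERK5-ko and MEK5DD differences between lines. The libraries that decide a call are named beside it. The sign changes are of values that did not pass. With median-ratio scaling TXN in Hs-578T ERK5-ko was -0.0129, GCLM in MDA-MB-231 MEK5DD 0.00407, SRXN1 in Hs-578T ERK5-ko against MEK5DD -0.0577 and GCLC in the ERK5-ko difference 0.00619, and with quantile normalization the last 3 were 0.0135, -0.0492 and 0.0107. Without 1 replicate, values ran from lowest to highest as follows. GCLC ran from -0.00887 to 0.0368 in MDA-MB-231 ERK5-ko, -0.0178 to 0.217 in Hs-578T ERK5-ko, -0.15 to 0.0854 between parental lines and -0.203 to 0.0318 in the ERK5-ko difference. TXN ran from -0.13 to 0.162 in Hs-578T ERK5-ko, -0.0477 to 0.244 in Hs-578T MEK5DD, -0.196 to 0.0308 between them, -0.0442 to 0.248 in the ERK5-ko difference and -0.0189 to 0.273 in the MEK5DD difference. TXNRD1 ran from -0.254 to 0.0512 in Hs-578T MEK5DD, and SRXN1 from -0.00311 to 0.124 in Hs-578T ERK5-ko against MEK5DD and -0.254 to 0.0172 in the ERK5-ko difference. The causes were not tested.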
